A study of Homo sapiens with 6 samples.

Results

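HLA class II antigen presentation was followed across 6 RNA libraries of 1205Lu, an established human line of metastatic melanoma. The genes are 9 of the 23368 in the deposited count table, taken by symbol. They are the peptide-binding chains HLA-DRA, HLA-DRB1, HLA-DPA1 and HLA-DPB1, the editing chains HLA-DMA and HLA-DMB, the invariant chain CD74, the transactivator CIITA and the protease CTSS. The genes were chosen by their function and by one measured value, the wide spread of HLA-DRA counts between libraries. The spread of HLA-DRA is therefore given as a description with no test. Of the 9 genes, 6 had enough reads for a test between groups, against 10678 of all genes. HLA-DRB1, HLA-DMB and CIITA did not.

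Cells were transiently transfected with pCMV6-SOX10, a plasmid for expression of the transcription factor SOX10 (3 libraries), or with the pCMV6 control plasmid (3 libraries). Both groups received 7.8 µg of plasmid per flask with FuGENE 6 and were lysed 24 h later, and a whole transfected culture was measured, not sorted cells. The series asks how SOX10 acts in melanoma cells, with the myelin protein PMP2 as its gene of interest. The labels call the 3 libraries of a group biological replicates of 1 cell line.

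MHC class II molecules carry peptides from endosomes to the surface for CD4+ T cells. The alpha and beta chains assemble in the endoplasmic reticulum around CD74, which blocks the groove until endosomal proteases, cathepsin S among them, trim it to a short remnant. HLA-DM then exchanges that remnant for antigenic peptide. CIITA switches the class II chain, HLA-DM and CD74 genes on together by docking on factors bound to the X and Y boxes of their promoters. Interferon gamma induces CIITA in many cells that are not professional presenting cells. Some melanomas express class II molecules.

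The promoter letters were searched for fixed short cores of the X and Y boxes, and only some of the genes held both of these exact cores. RefSeq promoter windows, from 250 bases before to 50 bases after a gene's start on GRCh38.p14, were matched by symbol for 6 of the 9 genes. HLA-DRA, CIITA and CTSS were not among them, and HLA-DPA1 had a pair of windows. An X-box core (TGATGA) on the gene's strand followed within 40 bases by a Y-box core (ATTGG, or CCAAT as its reverse) was found in CD74, HLA-DMA and HLA-DRB1. These letters were chosen with the promoters in view. The same arrangement was in 0.365% of 35116 promoters of the table. The stretches upstream of the start are printed on the gene's strand with both cores in capitals, because the counts of these genes differ: CD74 followed HLA-DRA closely, HLA-DMA less so, and HLA-DRB1 was near 0.
CD74: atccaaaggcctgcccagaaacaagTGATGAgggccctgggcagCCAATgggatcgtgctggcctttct
HLA-DMA: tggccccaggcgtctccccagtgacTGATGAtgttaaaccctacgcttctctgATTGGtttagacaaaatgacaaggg
HLA-DRB1: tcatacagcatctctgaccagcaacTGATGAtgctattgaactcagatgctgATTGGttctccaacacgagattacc
HLA-DPB1: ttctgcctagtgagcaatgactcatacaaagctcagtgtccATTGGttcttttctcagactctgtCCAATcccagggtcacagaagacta
They lie at chr5:150412939-150413007 on the minus strand for CD74, at chr6:32953152-32953229 on the minus strand for HLA-DMA and at chr6:32589870-32589946 on the minus strand for HLA-DRB1. The HLA-DPB1 stretch, at chr6:33075850-33075939 on the plus strand, holds a Y-box core on each strand and no X-box core in these letters, and its capitals mark the Y-box cores. In HLA-DMB both cores were present but more than 40 bases apart. Searched on both strands, the X-box core was in 10.9% and the Y-box core in 34.6% of all promoters. ACAAAG, a core of SOX factor motifs, was found in the windows of CD74 and HLA-DPB1 and in 16.1% of all promoters. TTCNNNGAA, the gamma-activated site, was in none of the windows of the 6 genes and in 7.66% of all promoters. A match is a description of letters and not a site in use. A box in other letters would be missed, so a window without a core may still hold the box. The reads were aligned to hg19, so these coordinates belong to the RefSeq table only.

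The libraries differed in depth and in the share of reads not assigned to genes. Reads assigned to genes numbered 2544420 to 4167393 in the SOX10 libraries and 867917 to 2066520 in the controls, so 1 read was worth 0.242 to 0.399 CPM in SOX10 libraries and 0.488 to 1.15 CPM in controls. CPM are counts per 1000000 assigned reads of tested genes, scaled by TMM. Reads that fell outside genes came to 93.5 per 100 assigned reads in SOX10 replicate 1, 121 and 122 in the other SOX10 libraries, and 125, 135 and 97.0 in control replicates 1, 2 and 3. Reads placed in more than 1 location were also fewest in SOX10 replicate 1 and control replicate 3, at 42.6 and 43.1 per 100 assigned reads, against 48.6 to 53.0 in the other libraries. SOX10 itself, the gene on the plasmid, had 21.7, 18.7 and 34.6 CPM in the libraries labelled SOX10, against 16.6, 20.8 and 21.5 CPM in controls, so the reads of the targeted gene did not separate the labels (log2 fold change 0.35, SE 0.27, adjusted p = 0.927 by edgeR's quasi-likelihood test). Of 10 melanoma markers 6 were tested and 0 called, with S100B at 271 to 360 CPM and ERBB3 at 376 to 538 CPM. MLANA, PMEL, TYR and MIA had 0 to 7 reads in any library.

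HLA-DRA, the alpha chain of HLA-DR, was the most abundant of the 9 genes and stood at very different levels in libraries of the same group. It had 86.0, 64.6 and 17.0 CPM in SOX10 replicates 1, 2 and 3, against 94.0, 25.4 and 171 CPM in control replicates 1, 2 and 3. These values rest on 321, 162 and 70 reads in SOX10 libraries and on 85, 22 and 350 reads in controls. SOX10 replicate 3 and control replicate 2 were low, control replicate 3 was highest, and the groups overlapped. The highest library stood 10.1-fold above the lowest, with a 95% counting interval from 7.77 to 13.2. Within the SOX10 group the highest library was 5.07-fold above the lowest, and within the controls 6.73-fold.

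**Figure D1:**
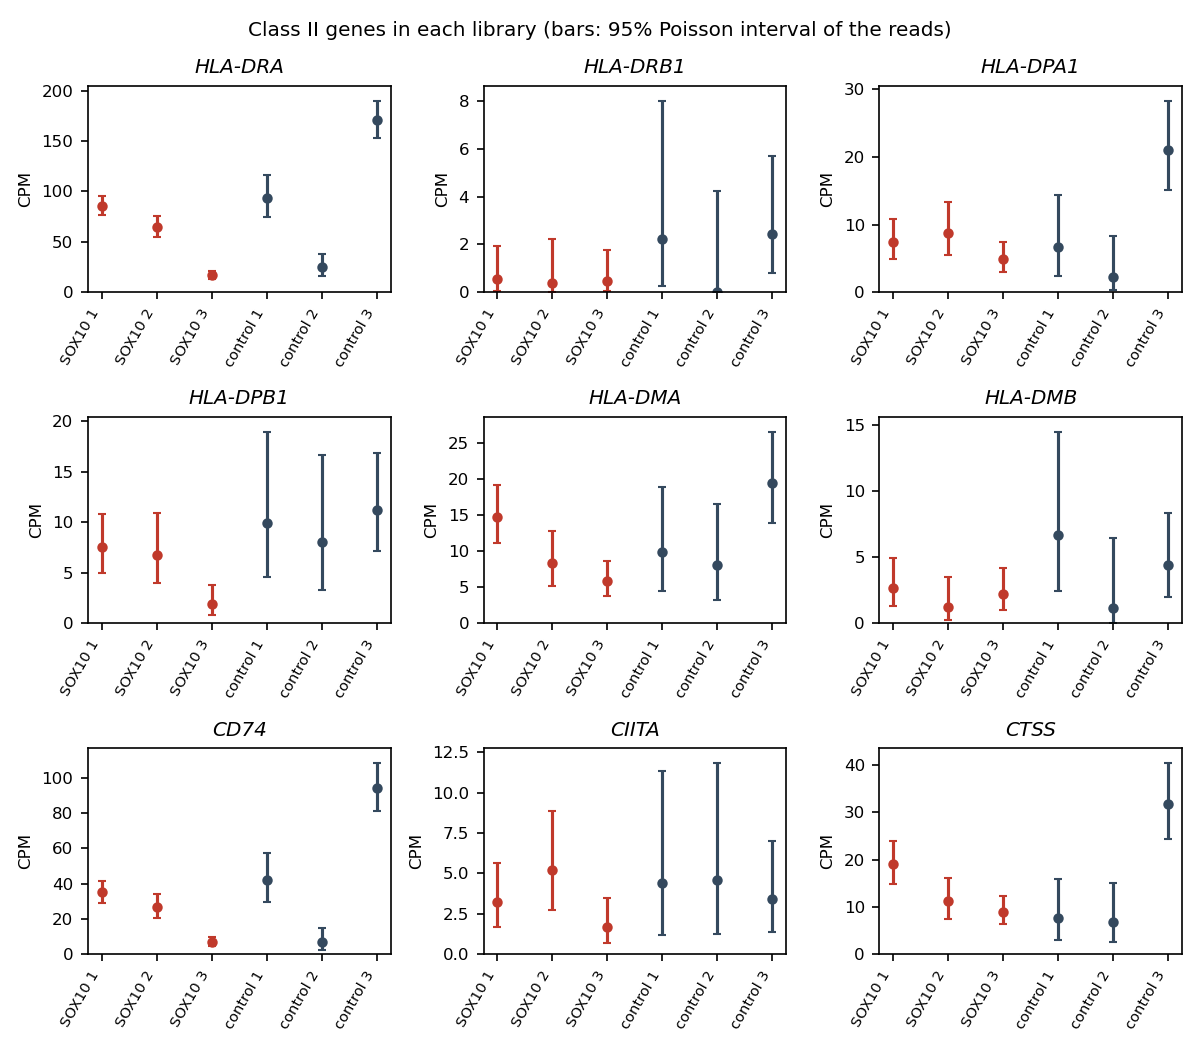
Levels of the 9 genes in CPM (y axes, linear, each from 0) in each of the 3 SOX10 libraries (red, left) and 3 control libraries (dark, right). Points are single libraries and bars are 95% Poisson intervals of the reads, which cover counting error only. HLA-DRA runs from 17.0 CPM in SOX10 replicate 3 to 171 CPM in control replicate 3, and CD74 has the same order of libraries.

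The means were 55.8 ± 35.3 CPM in SOX10 libraries and 96.7 ± 72.7 CPM in controls (SD, n = 3 each). The fitted log2 fold change of SOX10 against control was -0.92 (SE 0.41), which is given without a test. It was -0.12 without control replicate 3, -0.47 without SOX10 replicate 3 and -1.46 without SOX10 replicate 1. The SD of log2 CPM within groups was 1.30, whereas the median over the 1854 tested genes within 0.5 of its mean log2 CPM was 0.20, and 0 of them had a larger SD. That comparison describes the value HLA-DRA was chosen for.

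CD74, which encodes the invariant chain, followed HLA-DRA from library to library and spread even more widely. It had 35.1, 26.7 and 6.78 CPM in the SOX10 libraries, against 42.0, 6.92 and 94.1 CPM in the controls. Control replicate 3 was again highest, SOX10 replicate 3 and control replicate 2 were again low, and the groups overlapped. The highest library stood 13.9-fold above the lowest. Within the controls it was 13.6-fold, and control replicate 2 rests on 6 reads.

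The averages of CD74 were 22.9 ± 14.5 CPM in SOX10 libraries and 47.7 ± 43.9 CPM in controls (SD, n = 3 each). The log2 fold change was -1.25 (SE 0.46), with an unadjusted p of 0.0129 and an adjusted p of 0.599 by edgeR's quasi-likelihood test over all 10678 genes. It was -0.13 without control replicate 3 and -1.80 without SOX10 replicate 1. With reads outside genes as a covariate it was -1.35 and the adjusted p by edgeR 0.0315, so the call depended on that term. With no low-count filter the adjusted p was 7.3e-06. Over the 17 alternatives it ran from 7.3e-06 to 1.00. With the covariate 52 of 10678 genes were called over all, and with no filter 48 of 20538, against 12 of 10678 in the main test.

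The ratio of CD74 to HLA-DRA reads varied less between libraries than the level of either gene. For every 100 HLA-DRA reads there were 40.8 and 41.4 CD74 reads in SOX10 replicates 1 and 2, and SOX10 replicate 3 had 28 CD74 reads beside 70 of HLA-DRA. The controls had 44.7, 27.3 and 55.1. In control replicate 2 the 95% Clopper-Pearson interval, on 6 and 22 reads, ran from 9.05 to 69.4. The ratio of 55.1 in control replicate 3 had an interval from 46.0 to 65.9, which lies just above the 45.8 found over all libraries together. From the lowest to the highest library this ratio spanned 2.02-fold for CD74, against 3.24-fold for HLA-DMA, 4.05-fold for HLA-DPA1, 4.84-fold for HLA-DPB1 and 6.42-fold for CTSS, which had fewer reads.

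**Figure D2:**
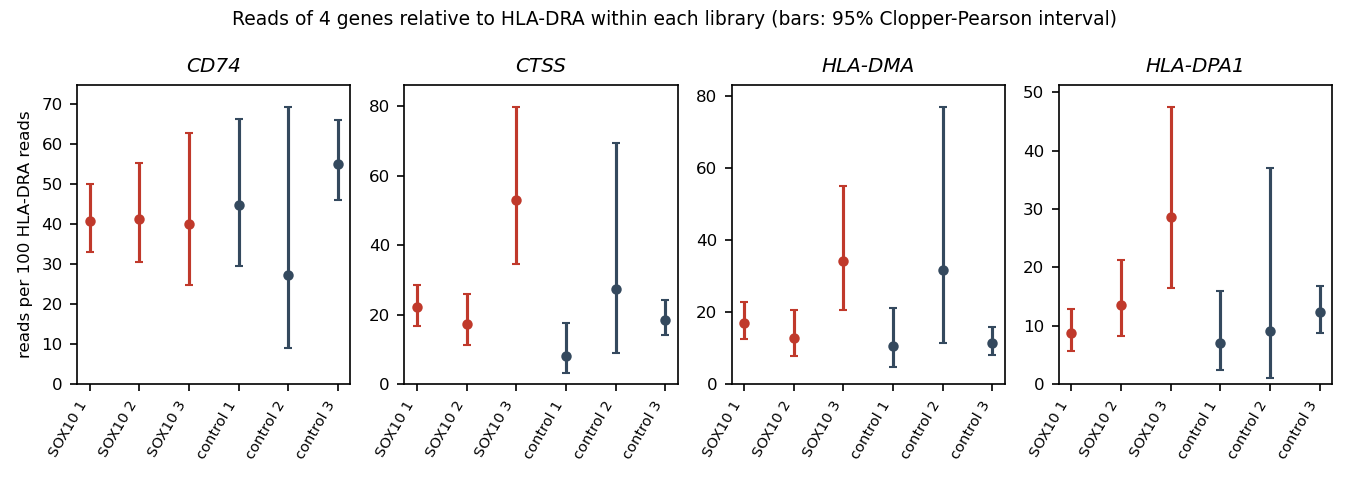
Reads of CD74, CTSS, HLA-DMA and HLA-DPA1 per 100 HLA-DRA reads (y axes, linear, from 0) within each of the 3 SOX10 libraries (red, left) and 3 control libraries (dark, right). Points are single libraries and bars are 95% Clopper-Pearson intervals. CD74 lies between 27.3 and 55.1, while CTSS lies between 8.24 and 52.9 with its highest value in SOX10 replicate 3, where HLA-DRA was lowest.

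The choice of these genes named the spread of HLA-DRA and not that of CD74. However, it was made with earlier results of these data known, and CD74 had the profile nearest to HLA-DRA. The spread of CD74 is therefore a description and not separate support. CD74 had an SD of log2 CPM within groups of 1.56, against a median of 0.27 over the 2211 tested genes of similar level, of which 0 had a larger SD. HLA-DPA1 had an SD of 1.03, and 26 of 1782 tested genes of similar level had a larger one. CTSS had 0.90, and 5 of 2078 had a larger one. HLA-DMA and HLA-DPB1 had 0.62 and 0.64, with 215 of 2024 and 347 of 1782 genes of similar level above them. SDs at these low levels contain counting error, and the genes of similar level share it only on average.

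**Figure D3:**
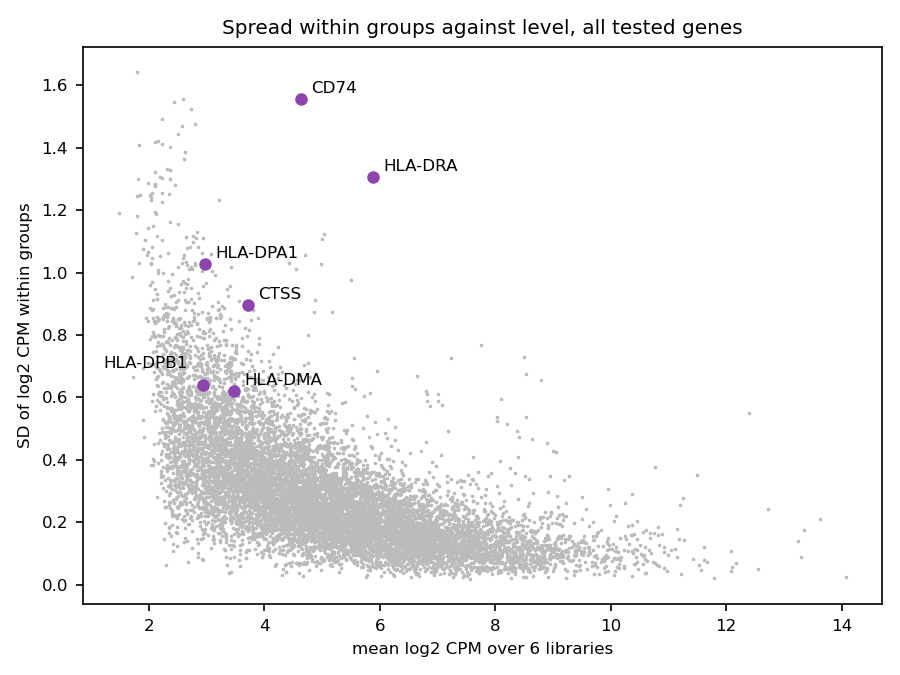
SD of log2 CPM within groups (y axis) against mean log2 CPM over the 6 libraries (x axis) for 10678 tested genes (grey points), with the 6 tested class II genes in purple. HLA-DRA, at an SD of 1.30, and CD74, at 1.56, stand above all tested genes of similar level, whereas HLA-DMA and HLA-DPB1 lie inside the cloud.

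The HLA-DP chains, a further class II heterodimer, were well below HLA-DRA per kilobase of transcript. HLA-DPA1, the alpha chain, had 7.50, 8.77 and 4.84 CPM in SOX10 libraries, against 6.63, 2.31 and 21.0 CPM in controls. The 28, 22 and 20 reads of the SOX10 libraries stand against 6, 2 and 43 in controls. Control replicate 3 was again highest, control replicate 2 was lowest on 2 reads, and the groups overlapped. The log2 fold change was -0.77 (SE 0.47, adjusted p = 0.882 by edgeR), and it turned to 0.62 without control replicate 3.

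HLA-DPB1, the beta chain, had 7.50, 6.78 and 1.94 CPM in SOX10 libraries, against 9.95, 8.07 and 11.2 CPM in controls. It was the only tested gene of the 9 whose groups did not overlap, which was so in 11.8% of all tested genes. Its log2 fold change was -0.92 (SE 0.47), with a 95% confidence interval from -1.89 to 0.051 and an adjusted p of 0.835 by edgeR. It stayed negative without any single library, between -1.30 and -0.48. The lowest SOX10 value rests on 8 reads and the controls on 9, 7 and 23. HLA-DPA1 and HLA-DPB1 overlap on opposite strands, over 1.82% of the HLA-DPA1 bases and 6.15% of the HLA-DPB1 bases in GENCODE release 29. No source used here says whether counting used strand, so reads in that overlap may not have been separated.

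HLA-DRB1, the beta chain that pairs with HLA-DRA, was close to absent from the counts. It had 2, 1 and 2 reads in SOX10 libraries, against 2, 0 and 5 reads in controls. Its partner HLA-DRA had 1010 reads over the 6 libraries and HLA-DRB1 had 12, so that per kilobase of transcript HLA-DRA stood 80.8-fold higher. The 0 in control replicate 2 allows up to 3.46 CPM. Beta chain genes are highly polymorphic and have near-identical neighbours, and 9.92% of the 50-base words of the HLA-DRB1 transcript also occur in transcripts of other genes, against 0% for HLA-DRA. Reads placed in more than 1 location were not assigned to genes and came to 42.6 to 53.0 per 100 assigned reads. Whether HLA-DRB1 reads were lost in this way was not tested, so its level is uncertain.

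Other class II genes were also near 0 in the counts. Of 11 further class II genes fixed as a list, namely HLA-DRB3 to HLA-DRB6, the HLA-DQ and HLA-DO chains and HLA-DPB2, none had enough reads for a test and 5 had 0 reads in every library. HLA-DRB5 had 3 reads, all in SOX10 replicate 3. Together they had 0 to 10 reads per library. HLA-DQA1 and HLA-DQB1 were both at 0. Whether reads of these genes were lost in alignment was not tested, so 0 reads may not mean absent RNA.

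The HLA-DM chains load peptide onto class II molecules in the endosome. HLA-DMA had 14.7, 8.38 and 5.81 CPM in SOX10 libraries, against 9.95, 8.07 and 19.5 CPM in controls. Control replicate 3 and SOX10 replicate 1 were high and the groups overlapped. The log2 fold change was -0.50 (SE 0.39, adjusted p = 0.929 by edgeR), and it was 0.099 without control replicate 3. HLA-DMB had 10, 3 and 9 reads in SOX10 libraries, against 6, 1 and 9 reads in controls, too few for the test. Of its 50-base words 29.01% also occur in a transcript of 1 other gene of GENCODE release 29, AL645941.2, as do 11.6% of those of HLA-DMA.

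CTSS encodes cathepsin S, the protease of the last steps of invariant chain removal. It had 19.0, 11.2 and 8.96 CPM in SOX10 libraries, against 7.74, 6.92 and 31.7 CPM in controls. Control replicate 3 was highest and the other controls lowest, so all SOX10 libraries lay between them. The log2 fold change was -0.47 (SE 0.40, adjusted p = 0.929 by edgeR). Without control replicate 3 it was 0.83 (SE 0.49, adjusted p = 0.880 by edgeR). In SOX10 replicate 3, where HLA-DRA was lowest, there were 52.9 CTSS reads per 100 HLA-DRA reads, with an interval from 34.5 to 79.8. The other SOX10 libraries had 22.1 and 17.3.

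CIITA, the transactivator of the class II chain genes and CD74, was counted at 12, 13 and 7 reads in SOX10 libraries, against 4, 4 and 7 reads in controls. These are 3.21, 5.19 and 1.70 CPM in SOX10 libraries and 4.42, 4.61 and 3.41 CPM in controls. Control replicate 3, the library with the most HLA-DRA and CD74, was thus in the middle for CIITA, with a 95% Poisson interval from 1.37 to 7.03 CPM. Control replicate 2, low in HLA-DRA, had an interval from 1.26 to 11.8 CPM. These intervals rest on 7 and 4 reads and overlap widely, and the difference in CIITA between these libraries was not tested. Between the same libraries HLA-DRA differed 6.73-fold and CD74 13.6-fold. SOX10 replicate 3 was the lowest library for CIITA, on 7 reads, as it was for HLA-DRA and CD74.

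Per kilobase of transcript, the 9 genes fell into an order that mostly held within libraries. HLA-DRA averaged 43.6 ± 27.6 CPM per kilobase in SOX10 libraries and 75.5 ± 56.8 in controls (SD, n = 3 each), and CD74 averaged 23.3 ± 14.8 in SOX10 libraries and 48.6 ± 44.7 in controls. HLA-DRA was above CD74 in 6 of 6 libraries, and CD74 above HLA-DMA in 5 of 6. HLA-DMA followed at 8.58 ± 4.09 CPM per kilobase in SOX10 libraries and 11.1 ± 5.46 in controls. HLA-DPA1, HLA-DPB1 and CTSS came next with means over all libraries of 4.99, 4.86 and 3.47, and their neighbours in the order did not differ beyond the spread. HLA-DMB averaged 2.17 over all libraries, and HLA-DRB1 and CIITA were at the bottom at 0.82 and 0.81. Lengths come from GENCODE release 29 transcripts and not from the annotation used for counting.

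Between the groups, 0 of the 5 tested genes other than HLA-DRA passed the threshold of 0.05 on the adjusted p of edgeR's quasi-likelihood test, against 0.112% of all tested genes. DESeq2 and limma-voom also called 0. At an unadjusted p under 0.05 there was 1 by edgeR, CD74, where 6.23% of all tested genes passed. The DESeq2 test had 0 of the 5. All 5 log2 fold changes were negative, with a median of -0.77, beside a median of 0.0076 over all tested genes and 51.3% of them positive. The genes share libraries and an order of libraries, so these signs are not independent of one another. Control replicate 3 was the highest library in 6 of 6 tested class II genes, of which HLA-DRA was chosen for its spread, and in 1676 of all 10678 tested genes. For the class II genes SOX10 replicate 3 or control replicate 2 was the lowest in each.

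**Figure D4:**
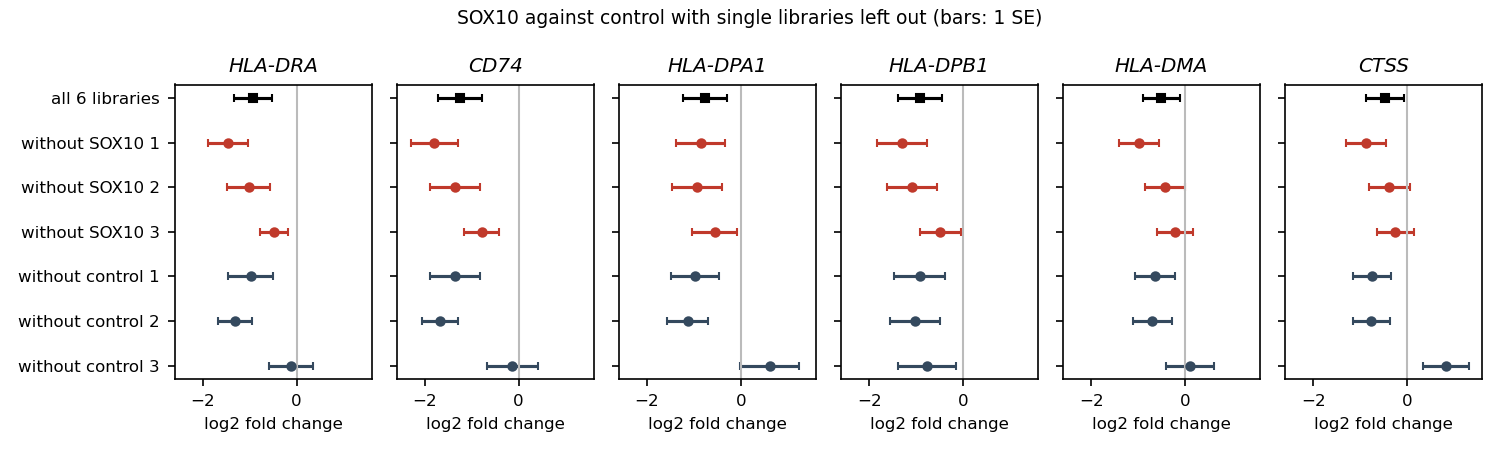
Log2 fold change of SOX10 against control (x axes) for the 6 tested class II genes in the fit of all 6 libraries (black square) and with each library left out in turn (red points, a SOX10 library left out, above dark points, a control library left out). Bars are 1 SE of the edgeR fit and can be smaller than the spread between libraries implies. Without control replicate 3 the value is -0.12 for HLA-DRA and -0.13 for CD74, and it is above 0 for HLA-DPA1, HLA-DMA and CTSS.

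Without control replicate 3 the 5 values of CD74, HLA-DPA1, HLA-DPB1, HLA-DMA and CTSS ran from -0.77 to 0.83. Control replicate 3 and SOX10 replicate 1 also had the fewest reads outside genes and the fewest reads placed in more than 1 location. The part of these measures in the spread between libraries was not tested. With reads outside genes as a covariate, the log2 fold change of SOX10 against control was -1.07 for HLA-DRA and -1.35 for CD74. It was -1.02 for HLA-DPB1, -0.71 for HLA-DPA1, -0.60 for HLA-DMA and -0.48 for CTSS. By edgeR CD74 alone of the 5 genes other than HLA-DRA passed in that fit, which called 52 of 10678 genes over all. The fit without the covariate called 12. Without both SOX10 replicate 1 and control replicate 3 the log2 fold change was -0.64 for HLA-DRA, -0.66 for CD74 and 0.54 for HLA-DPA1.

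The genes whose profile over the 6 libraries lay nearest to that of HLA-DRA were ranked by the root mean square difference of centred log2 CPM. CD74 was nearest of 10677 genes, at 0.27. CEACAM1, a cell adhesion molecule, followed at 0.37, the cytokine IL6 at 0.41, BST2, which tethers budding virions, at 0.43, and XAF1, a proapoptotic protein, at 0.46. BST2 and XAF1 are known to be induced by interferon. The same 4 genes came after HLA-DRA in the ranking for CD74, at 0.53 for IL6 to 0.61 for BST2. Among the other class II genes HLA-DPA1 ranked 36th for HLA-DRA at 0.64, HLA-DMA 55th, HLA-DPB1 66th and CTSS 124th.

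BST2 had 45.5, 28.7 and 13.8 CPM in SOX10 libraries, against 39.8, 13.8 and 52.7 CPM in controls. IL6 had 29.2, 42.7 and 11.9 CPM in SOX10 libraries, against 66.3, 13.8 and 67.3 CPM in controls. Both were low in SOX10 replicate 3 and control replicate 2, as HLA-DRA was, over a smaller range. CEACAM1 and XAF1 spanned 6.04-fold and 5.37-fold between their highest and lowest libraries, and none of the 4 passed the test between groups.

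**Figure D5:**
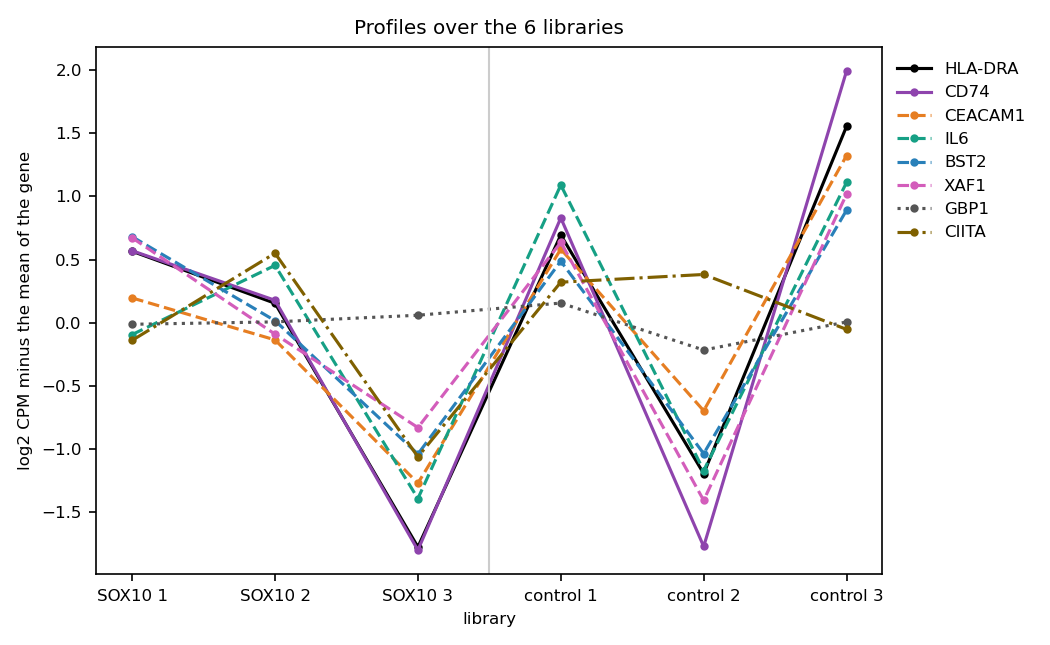
Log2 CPM minus each gene's own mean over the 6 libraries (y axis) by library (x axis, SOX10 libraries left of the grey line, controls right of it). HLA-DRA and CD74 (solid) and the 4 genes nearest to HLA-DRA (dashed) are low in SOX10 replicate 3 and control replicate 2. They are high in control replicate 3, whereas GBP1 (dotted) stays within 1.29-fold. CIITA (dash-dot), on 4 to 13 reads per library, is lowest in SOX10 replicate 3 and in the middle in control replicate 3.

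Interferon gamma signalling genes were looked at because that cytokine induces class II genes. Of 18 genes in the list 13 were tested, and 0 passed over all genes by edgeR in either direction. At an unadjusted p under 0.05 there was 1, where 6.23% of all tested genes passed. IFNG itself had 1 read, in control replicate 3. GBP1, a guanylate-binding protein induced by interferon, was nearly level at 687, 696 and 722 CPM in SOX10 libraries, against 772, 596 and 696 CPM in controls. IRF1, a transcription factor induced by interferon, had 35.9, 32.3 and 27.6 CPM in SOX10 libraries, against 27.6, 28.8 and 56.1 CPM in controls. It was highest in control replicate 3, as was the chemokine CXCL10 at 6.43, 2.39 and 3.39 CPM in SOX10 libraries, against 7.74, 4.61 and 14.1 CPM in controls.

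None of the factors that bind class II promoters or act with CIITA passed the test. All 15 genes of that list were tested, 0 passed over all genes by edgeR, and 1 passed 0.05 unadjusted, as did 6.23% of all tested genes. The list had a median log2 fold change of -0.017 and a range from -0.43 to 0.50. The histone acetyltransferase EP300 had -0.22 (SE 0.10, adjusted p = 0.783 by edgeR), at 370, 333 and 361 CPM in SOX10 libraries, against 384, 467 and 394 CPM in controls. The related CREBBP had 0.068 (SE 0.11) and KAT2B 0.50 (SE 0.26).

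The most abundant endosomal proteases were nearly level between libraries. That list held 16 symbols, some of them older and newer names of the same gene, and 14 matched a counted gene. Of these 12 were tested, 0 passed over all genes by edgeR and 1 did at 0.05 unadjusted, beside 6.23% of all tested genes. The median log2 fold change was 0.048. The carboxypeptidase CTSZ had 786, 742 and 638 CPM in SOX10 libraries, against 747, 646 and 744 CPM in controls. CTSD, the main endosomal aspartic protease, had 624, 621 and 537 CPM in SOX10 libraries, against 638, 526 and 625 CPM in controls. CTSL2, also called CTSV, a cysteine protease, had 0.88 (SE 0.40, adjusted p = 0.766 by edgeR), on 9, 10 and 7 reads in controls. CTSB had 0.17 (SE 0.13). IFI30, the endosomal thiol reductase, had 36.4, 25.9 and 15.7 CPM in SOX10 libraries, against 35.4, 12.7 and 47.8 CPM in controls. It was highest in control replicate 3 and lowest in control replicate 2, and it was named after its values were seen.

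Of 13 listed partners of class II at the contact with T cells, 5 had enough reads for a test. None passed over all genes by edgeR. At an unadjusted p under 0.05 there were 2, ICAM1 and CD83, where 6.23% of all tested genes passed. ICAM1, an adhesion ligand for T cells, had 99.3, 72.2 and 53.0 CPM in SOX10 libraries, against 127, 79.6 and 254 CPM in controls. Its log2 fold change was -1.12 (SE 0.25, adjusted p = 0.114 by edgeR), and -0.47 without control replicate 3. CD83, which keeps class II molecules at the surface of presenting cells, had 12.6, 15.95 and 11.6 CPM in SOX10 libraries, against 16.6, 16.1 and 28.8 CPM in controls. CD274, which encodes PD-L1, had 65.9, 66.6 and 64.4 CPM in SOX10 libraries, against 49.8, 39.2 and 64.4 CPM in controls, for which the fitted log2 difference was 0.30 (SE 0.17, adjusted p = 0.871 by edgeR). The costimulators CD80, CD86 and CD40 had 0 to 3 reads in any library.

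Markers of leukocytes that present antigen were close to the counting floor. None of 15 had enough reads for a test, and their summed level was 6.96 to 9.69 CPM in SOX10 libraries and 3.90 to 14.4 CPM in controls. The sum overlapped between groups, and in control replicate 3, where HLA-DRA reached 171 CPM, it was 3.90 CPM. These sums rest on 5 to 40 reads per library, so their order between libraries is uncertain. Over all libraries CD14 had 5 reads and TYROBP 1, against 20 for ITGAM. Among T cell markers CD3D and CD3E had 0 reads, while CD8A had 13, of which 10 were in SOX10 replicate 1. The 6 T cell markers summed to 0.97 to 3.48 CPM in SOX10 libraries and 0 to 1.46 CPM in controls, and the 5 endothelial markers to 7.51 to 21.5 CPM in SOX10 libraries and 7.74 to 16.6 CPM in controls. PTPRC, the pan-leukocyte marker, had 10, 2 and 9 reads in SOX10 libraries, against 4, 1 and 2 reads in controls. In a bulk culture, more cells that express class II genes and more class II RNA per cell cannot be told apart.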

How the data were processed

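RNA of 3 SOX10 and 3 control flasks, 125 ng per library, was sequenced. Per the submitters' processing notes, build hg19 and the tools HTSeq, DESeq and TopHat 1.4.0 were used. No source used here names the annotation or strand setting. The deposited table holds raw read counts by gene symbol, and its 5 closing class rows, which name no gene, entered neither library sizes nor tests. Reads outside genes and reads placed more than once are given per 100 assigned reads.

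Columns were matched to samples by title. Replicate libraries were not duplicates of each other (chi-square per degree of freedom 1.98 to 6.50). Groups were compared in edgeR 4.0.16 (R 4.3.3) by quasi-likelihood F test, two-sided and without covariates, after TMM scaling and filterByExpr (minimum total 15, minimum count 10), over all 10678 genes that passed, with Benjamini-Hochberg adjustment and a threshold of 0.05. It was checked on simulated data in which all genes had the same variability beyond counting error, less than the tested class II genes had. That check therefore says little about these genes. Standard errors come from the F statistic. Its variance estimate draws on all genes, so an SE can be smaller than a gene's own spread between libraries implies. Log2 CPM use a prior count of 2. Over tested genes the standard error had a median of 0.23 (log2). A count of 0 allows 3 reads, and intervals (95%) and floors cover counting error only. DESeq2 1.42.0 and limma 3.58.1 (voom) were alternatives.

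The genes and lists were chosen with earlier results of these data known. Named are all 9 genes, any list gene that passed, in each list the 2 tested genes with the smallest p and the 2 with the highest mean CPM, and the 5 genes nearest in profile to HLA-DRA and to CD74. Of the genes so named, 1 is not reported here.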

Additional observations from a re-analysis of the deposited data

How the results depend on the processing

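Scalings moved little: with DESeq2 size factors, library totals or upper quartile scaling the ratio of the highest to the lowest HLA-DRA library was 9.91 to 10.1, and the log2 fold changes kept their signs. Without single libraries that ratio ran from 5.55 to 10.1, the genes called over all from 6 to 18, and the listed pathway genes called from 0 to 1. It was 5.54 without both SOX10 replicate 1 and control replicate 3, where 7 genes were called over all, against 12 in the test with all libraries. With no low-count filter 1 class II gene (CD74), 48 genes over all and 1 listed gene were called. With reads outside genes as a covariate these counts were 1 (CD74), 52 and 1. With at least 1 CPM in 3 libraries 1 listed gene was called. In each case the listed gene was ICAM1. Without single libraries the log2 fold change ran from -1.13 to 0.62 for HLA-DPA1, from -0.98 to 0.099 for HLA-DMA and from -0.87 to 0.83 for CTSS, positive in each only without control replicate 3. They also did so without both SOX10 replicate 1 and control replicate 3 for HLA-DPA1 (0.54) and CTSS (0.43). The cause was not tested. After thinning to 867917 reads, 2 class II genes besides HLA-DRA were tested.

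The replicate numbers left no visible pairing in the counts. Of 3 same-numbered pairs 0 had deviations correlated above 0.1, and 0 of 3 SOX10 libraries correlated best with their own number. With 3 libraries in a group, these correlations cannot show whether flasks were handled in pairs. With the replicate number as a block 7 genes were called over all and 0 class II genes. HLA-DRB1, HLA-DMB and CIITA are limited by depth.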
